A study of Mus musculus with 59 samples.

Results

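The N-terminal acetyltransferase complex NatA and its closest partners were followed at the transcript level in the prefrontal cortex of young mice. The members are 5 genes chosen by their symbols, Naa15, Naa10, Naa16, Naa50 and Hypk. Each symbol matched a single Ensembl identifier, so that all 5 of the 18088 genes in the expression table were found and all 5 passed the filter on low values. The study sequenced poly(A) RNA from 59 such cortices, all from C57BL/6J mice at postnatal day 25, and labels 30 as wild type (WT) and 29 as heterozygous (HT) for Naa15. Females and males were exposed through milk, between days 3 and 24 of life, to lithium, a mood stabiliser (20 libraries), to fluoxetine, which blocks serotonin uptake (20), or to vehicle (19). Every combination of genotype, exposure and sex has 5 libraries, and HT males on vehicle have 4, which gives 12 groups. Neither the Naa15 allele nor the litters are described in the labels. Pups of a litter share their dam's milk and so its exposure, while the tests treat every library as independent. The p-values may therefore be too small, and a group may share a litter.

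NatA works at the ribosome, where it transfers an acetyl group to the N-terminus of many newly made proteins once their first methionine has been removed. NAA10 is the catalytic subunit and NAA15 the large auxiliary subunit that holds NAA10 and docks the complex on the ribosome, while NAA16 is a paralogue that can take the place of NAA15. NAA50 is a second acetyltransferase bound to NAA15 and gives the assembly called NatE, and HYPK is a small protein that binds NatA and tunes its activity. In people, variants of NAA15 and NAA10 are known causes of neurodevelopmental disorders.

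The members lie on separate chromosomes of the mouse genome build GRCm38. Naa15 (ENSMUSG00000063273) spans 51415148 to 51476507 on the plus strand of chromosome 3. Naa10 (ENSMUSG00000031388) spans 73916873 to 73921944 on the minus strand of the X chromosome, nearly all of it inside the annotated extent of Arhgap4 on the same strand. Naa16 (ENSMUSG00000022020) spans 79325269 to 79390778 on the minus strand of chromosome 14. Naa50 (ENSMUSG00000022698) spans 44139830 to 44163366 on the plus strand of chromosome 16. Hypk (ENSMUSG00000027245) spans 121453290 to 121458672 on the plus strand of chromosome 2 and overlaps Serf2 on the same strand and Serinc4 on the other. Of all 31-base words in the Hypk transcripts 33.6% also occur in Serf2 transcripts, and of those in Naa10 10.4% occur in Arhgap4, so the assignment of reads to Hypk and Naa10 is less certain than for the others. Naa15 and Naa16, although paralogues, shared only 0.994% and 2.39% of their words with any other gene.

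All members have an entry among the RefSeq promoters of build GRCm38.p6, windows of 300 bases around the annotated start. These windows were GC-rich, with 68.7% G or C in Naa15, 69.7% in Naa16, 67.3% in Naa50, 59.7% in Naa10 and 53.0% in Hypk, against a median of 52.7% over 27025 promoters. The core of the motif of NRF1, a transcription factor of nuclear genes for mitochondrial proteins, was searched on both strands as GCGC, any base and TGCGC, a choice made with the values and promoters of these genes known. It occurred once each in the windows of Naa15, Naa16 and Naa50, in neither Naa10 nor Hypk, and in 4.68% of all promoters. The stretches of 30 bases that hold it are shown because these 3 members share it, in the direction of the gene and with the motif in capitals.
Naa15, chr3:51415938-51415967, plus strand: gcgggtcaccGCGCCTGCGCgttgggaggt
Naa16, chr14:79390778-79390807, minus strand: ccgcgagactGCGCATGCGCaccccgcggg
Naa50, chr16:44139771-44139800, plus strand: gcggagcactGCGCCTGCGCgcgacgcggc
The first base of the motif lay 68, 129 and 10 bases before the RefSeq start of Naa15, Naa16 and Naa50. These starts differ from those of the gene extents given above. The Naa15 stretch lies inside its extent, which begins at 51415148. On both strands, the GC box GGGCGG occurred in Naa10, Naa16, Naa50 and Hypk and in 35.6% of promoters, the ETS core CCGGAAG in Hypk and in 9.08%, and the TATA box TATAAA in 14.1% of promoters and in no member's window. Such matches describe letters and not bound sites.

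Libraries held 24.99 to 32.87 M reads. Along the first principal component all 20 lithium libraries and the 5 HT fluoxetine females, 25 libraries in all, lay between -31.6 and -14.9, apart from the other 34 between -2.74 and 27.6. The mitochondrial share of reads was 6.76% to 10.3% in the 25 and 4.96% to 7.83% in the 34. The GC slope of a library, the change of its log2 values per 10 points of a gene's GC content relative to the mean library, was -0.255 to -0.057 in the 25 and -0.063 to 0.191 in the 34. Because every lithium library belongs to the first set, lithium and this difference between library sets cannot be told apart by leaving libraries out. The tissue label was matched by the cortical excitatory markers, led by Slc17a7 at a mean of 51291 normalised counts, and none of that list was at 0 in any library. Summed striatal markers ran from 2845 to 16989 over the vehicle libraries, and those of olfactory bulb and neuroblasts from 3402 to 17805. These sums thus varied widely between libraries, and whether tissue content differed was not tested. In bulk tissue, fewer cells of a type and less RNA per cell cannot be told apart.

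All members were well measured, with means over the 59 libraries of 1673 normalised counts for Naa15, 514 for Naa10, 222 for Naa16, 2003 for Naa50 and 302 for Hypk. The fewest reads behind a value were 165, in Naa16. Divided by the length of the principal transcript, the levels were 563 ± 48.7 counts per kb (SD, n = 59) for Naa50, 534 ± 41.1 for Naa10, 315 ± 46.4 for Hypk, 275 ± 21.5 for Naa15 and 16.8 ± 1.66 for Naa16. On that scale Naa50 and Naa10 differed by less than 1 SD, Hypk and Naa15 by less than the larger of their SDs, and Naa16 was far below. With the longest coding transcript of each gene instead, Naa10 led at 498 per kb, followed by Naa50 at 446, Naa15 at 224, Hypk at 72.5 and Naa16 at 16.8, so Naa10 and Naa50 changed places and Hypk fell below Naa15.

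Naa15 therefore made up most of the auxiliary subunit transcript. It was 94.2% ± 0.427 (SD, n = 59) of the sum of Naa15 and Naa16 per kb, between 92.6% and 95.2% in every library. Group means of this share ran only from 93.9% in WT fluoxetine males to 94.5% in WT fluoxetine females. Within groups the coefficient of variation was 5.76% for Naa50, 6.29% for Naa15, 7.21% for Naa10, 9.16% for Naa16 and 14.5% for Hypk, against 2.26%, 2.47%, 4.46%, 6.78% and 5.82% from counting reads alone. Hypk thus varied most, beyond what its read number gives.

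Across the 12 groups the levels moved within narrow limits. Naa15 was lowest in WT fluoxetine males, at 1550.2 ± 47.3 normalised counts (SD, n = 5), and highest in HT fluoxetine females at 1823 ± 121. Naa50 ran from 1841 ± 109 in HT vehicle males (n = 4) to 2211 ± 115 in HT fluoxetine females. Naa16 ran from 203 ± 8.65 in WT fluoxetine females to 239 ± 43.3 in HT lithium males. For both paralogues and for Naa50 the upper end was held by lithium groups and the HT fluoxetine females. Naa10 followed no such order, and ran from 483 ± 43.7 in HT lithium females to 557 ± 37.6 in HT vehicle males, and Hypk from 260.2 ± 53.6 in HT vehicle females to 344 ± 55.8 in WT lithium males. In the order of the 12 means, each of the 11 pairs of neighbours differed by no more than 1 SD and overlapped in range, for all 5 genes.

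**Figure D1:**
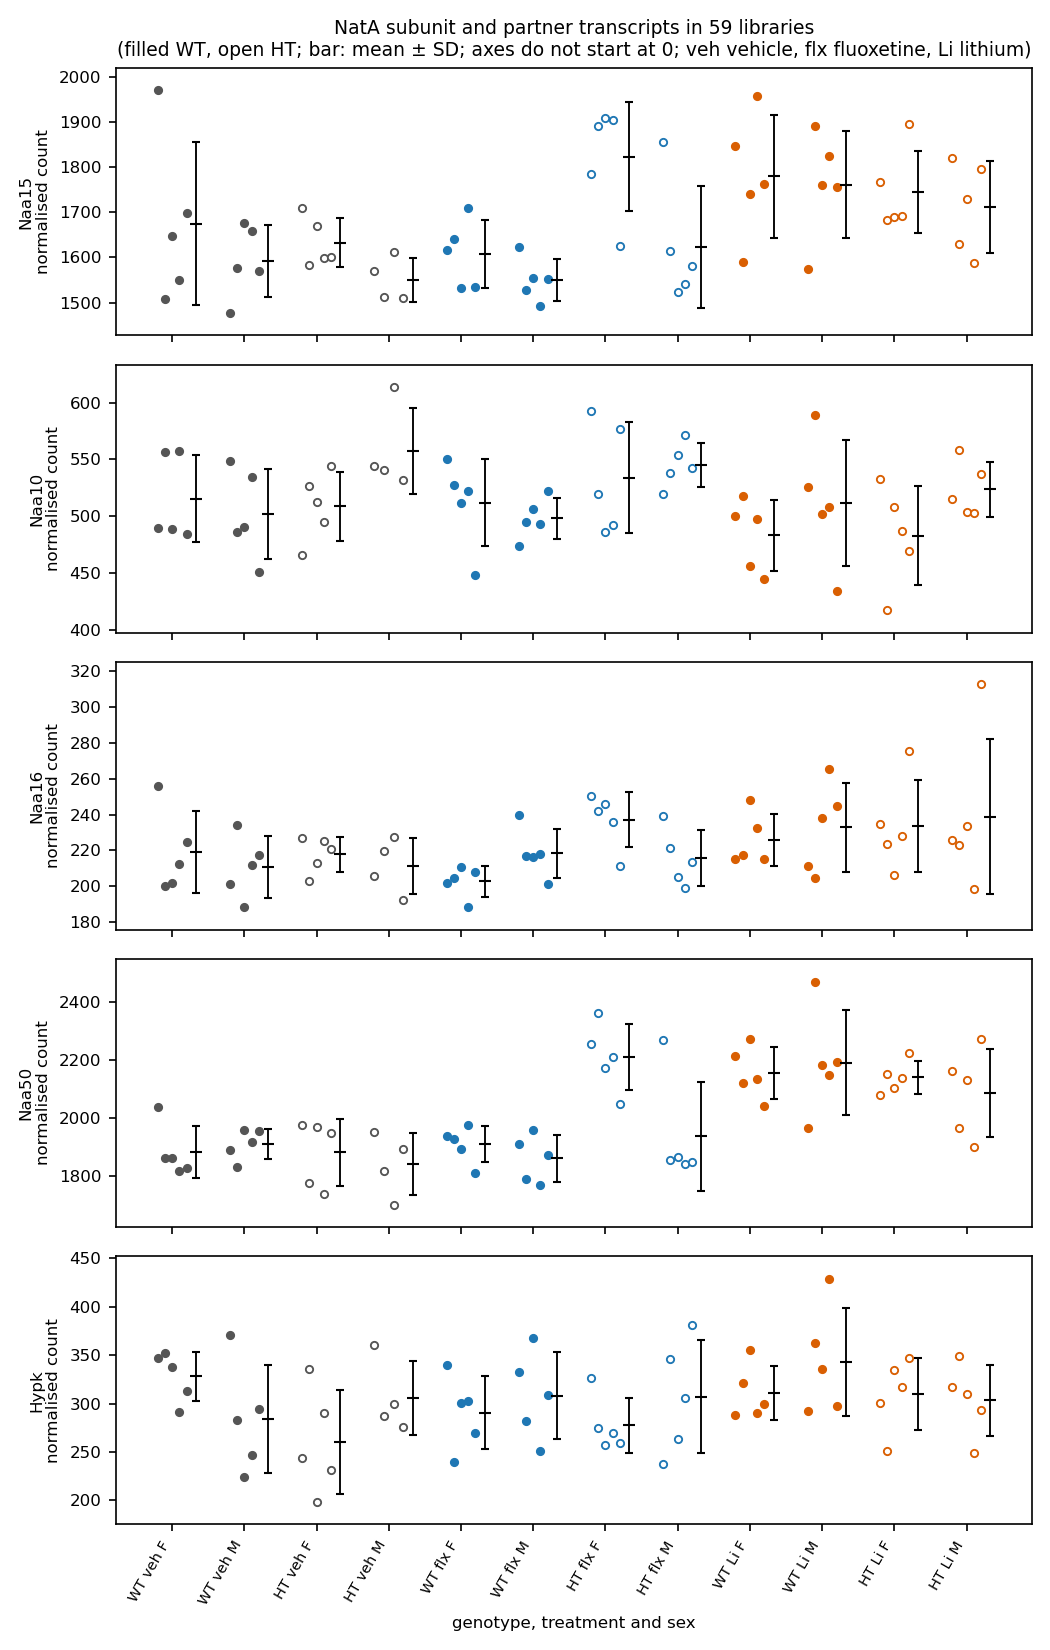
Normalised counts of the 5 members (y axes, not starting at 0) in the 12 groups of genotype, treatment and sex (x axis); points are libraries and bars the group mean ± SD (n = 5, HT vehicle males n = 4). Naa15 in HT vehicle libraries sits between 1509.8 and 1710.2, inside the WT vehicle range of 1476 to 1971, and Naa50 in lithium libraries between 1899.5 and 2472.

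The first comparison asks whether mice labelled heterozygous for Naa15 carried less of its transcript. Under vehicle, the WT females had 1508, 1551, 1647, 1699 and 1971 normalised counts of Naa15, and the WT males 1476, 1570.0, 1578, 1658 and 1677. The HT females had 1583, 1599, 1600.5, 1669.8 and 1710.2, and the HT males 1509.8, 1512, 1569 and 1612. Every HT value lay within the WT range of the same sex. The difference, the mean of the 2 sexes, was -0.03 on the log2 scale with a standard error (SE) of 0.041 and a 95% interval of -0.12 to 0.05 (limma, 9 HT against 10 WT libraries, adjusted p = 0.895). In percent this is -2.33%, with an interval from -7.8% to 3.46%, whereas loss of the transcript from 1 of 2 alleles would give -1 on the log2 scale. The level of Naa15 therefore does not separate the genotypes and is no check of the genotype labels, and HT and WT below are the genotypes as labelled.

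No partner was called different between genotypes under vehicle either, where called means an adjusted p under 0.05 over the 17891 genes tested. Of the 5 members 0 were called changed, where limma called 0.106% of all genes, and 0 had an unadjusted p under 0.05, with 0 called by edgeR and by DESeq2. Naa10, the catalytic subunit, differed by 0.07 ± 0.048 (log2 difference ± SE, adjusted p = 0.788), Naa16, the paralogue that could stand in for Naa15, by 0.00 ± 0.060 (adjusted p = 0.996) and Naa50 by -0.03 ± 0.038 (adjusted p = 0.911). The interval for Naa16 ran from -7.89% to 8.79%. Hypk showed the largest point estimate, -0.12 ± 0.093 (adjusted p = 0.824). It came from females, where the WT libraries had 291, 313, 338, 347 and 352 and the HT libraries 199, 232, 244, 291 and 336. That difference of -0.35 ± 0.128 in females had an unadjusted p of 0.00767 and an adjusted p of 0.497, and the estimate in males had the other sign, 0.12 ± 0.135 (adjusted p = 0.85), in comparisons that called 0.0168% and 0.0615% of genes.

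Averaged over the treatments, 0 of 5 members were called between HT and WT by limma, edgeR or DESeq2 and 1 had an unadjusted p under 0.05, against 14.7% of all genes called by limma. Naa15 ran from 1509.8 to 1909 with a median of 1669.8 in HT and from 1476 to 1971 with a median of 1631 in WT. Its difference was 0.02 ± 0.023 (adjusted p = 0.648), with an interval of -1.98% to 4.62%. Naa10 had the smallest p, 0.06 ± 0.027 higher in HT with an unadjusted p of 0.0338 and an adjusted p of 0.134, and was above the WT mean of the same exposure and sex in 20 of 29 HT libraries. Under lithium 0 of 5 members were called between genotypes (0.386% of all genes, 0 members at an unadjusted p under 0.05, 0 by edgeR and DESeq2), and the differences ran from -0.09 ± 0.090 for Hypk to 0.04 ± 0.058 for Naa16.

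Under fluoxetine Naa15 and Naa50 were higher in HT than in WT libraries, calls that were not made in males alone or with GC content corrected. Naa15 had a lowest, median and highest value of 1523, 1706 and 1909 in the 10 HT libraries and of 1493, 1554 and 1710.0 in the 10 WT libraries, a difference of 0.12 ± 0.040 (adjusted p = 0.0149). Naa50 had 1843, 2112 and 2364 against 1769, 1902 and 1978, a difference of 0.13 ± 0.037 (adjusted p = 0.00362). These are 2 of 5 members, where limma called 33.3% of all genes. Naa10 at 0.09 ± 0.047 (adjusted p = 0.118), Naa16 at 0.10 ± 0.058 (adjusted p = 0.175) and Hypk at -0.04 ± 0.090 (adjusted p = 0.781) did not pass.

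The higher values sat in the HT fluoxetine females, the group whose libraries stood with the lithium libraries. There, 39.5% of all genes were called between genotypes, and Naa15 was higher by 0.18 ± 0.057 (adjusted p = 0.00873), Naa50 by 0.21 ± 0.052 (adjusted p = 0.000848) and Naa16 by 0.22 ± 0.082 (adjusted p = 0.0251). Naa16 had 212, 236, 242, 246 and 250.5 in these HT females and 188, 202, 205, 208 and 211 in WT fluoxetine females. Naa50 had 2049.5, 2174, 2211, 2255 and 2364 against 1811, 1893, 1928, 1937 and 1978. For both genes the HT and WT ranges did not overlap, as for 31.1% of all genes tested in these 2 groups, and for Naa16 the gap was from 211 to 212. In fluoxetine males, with 1.6% of genes called, 0 of 5 members passed and Naa50 had 1843, 1848, 1855, 1866 and 2271 in HT against 1769, 1790.0, 1872, 1911 and 1960.0 in WT. A fit without the 5 HT fluoxetine female libraries leaves this comparison to males alone. Its genotype difference under fluoxetine was 0.06 for Naa15 (adjusted p = 0.633) and 0.05 for Naa50 (adjusted p = 0.666). It restates the male result and is no separate check. The call of Naa15 over both sexes ended without HT fluoxetine male replicate 1 (0.10, adjusted p = 0.0538).

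Fluoxetine itself was then set against vehicle within each genotype. In WT mice 0 of 5 members were called (limma called 1.02% of genes, 0 members had an unadjusted p under 0.05, and edgeR and DESeq2 called 0), and the estimates ran from -0.05 ± 0.040 for Naa15 to -0.01 ± 0.037 for Naa50. In HT mice Naa50 rose by 0.15 ± 0.038 (adjusted p = 0.00133, above the vehicle mean of the same sex in 10 of 10 libraries) and Naa15 by 0.11 ± 0.041 (adjusted p = 0.0366, 7 of 10 libraries), 2 of 5 members where 31.2% of genes were called. Over both genotypes Naa50 was higher by 0.07 ± 0.026 (adjusted p = 0.0451), the only one of 5 members that limma called, against 20% of genes, and edgeR called 0 members. The 2 genotypes' vehicle libraries serve all of these comparisons and those with lithium.

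The test of the difference between these responses, the interaction of genotype with fluoxetine, gave 0.16 ± 0.058 for Naa15 (adjusted p = 0.0461) and 0.16 ± 0.052 for Naa50 (adjusted p = 0.0231), with 20.6% of genes called. Naa16 at 0.10 ± 0.083 (adjusted p = 0.439), Naa10 at 0.03 ± 0.067 (adjusted p = 0.831) and Hypk at 0.08 ± 0.130 (adjusted p = 0.73) did not pass. In HT females fluoxetine against vehicle gave 0.23 ± 0.052 for Naa50 (adjusted p = 0.000233) and 0.16 ± 0.057 for Naa15 (adjusted p = 0.0236), among 38.3% of genes called. In HT males it gave 0.07 ± 0.055 (adjusted p = 0.764) and 0.06 ± 0.060 (adjusted p = 0.815), among 0.162%. The interaction of fluoxetine with sex in HT mice called 0 of 5 members by limma (15.2% of genes), with Naa50 at 0.16 ± 0.075 and an unadjusted p of 0.0343. A different response in the sexes was therefore not shown for these genes.

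The fluoxetine calls were not made without the HT fluoxetine females, and some of them also ended with a single library left out. In a fit without the HT fluoxetine females, the response in HT mice and the interaction come from males alone. The response was then 0.06 for Naa15 (adjusted p = 0.828) and 0.07 for Naa50 (adjusted p = 0.782), and the interaction 0.10 (adjusted p = 0.903) and 0.11 (adjusted p = 0.888). Over both genotypes, with HT females left out of the contrast, the response of Naa50 was 0.02 (adjusted p = 0.915). Leaving out single libraries ended the call of Naa15 in HT mice for 9 of 59 libraries (adjusted p up to 0.113), that of its interaction for 23 (up to 0.0985) and that of Naa50 over both genotypes for 22 (up to 0.0944). The interaction of Naa50 lost its call without HT fluoxetine male replicate 1 or HT vehicle male replicate 3 (0.13 and 0.14, adjusted p of 0.0503 and 0.052). The calls of Naa50 in HT mice and between genotypes under fluoxetine ended for 0 of 59 libraries (limma, adjusted p up to 0.00692 and 0.017).

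**Figure D2:**
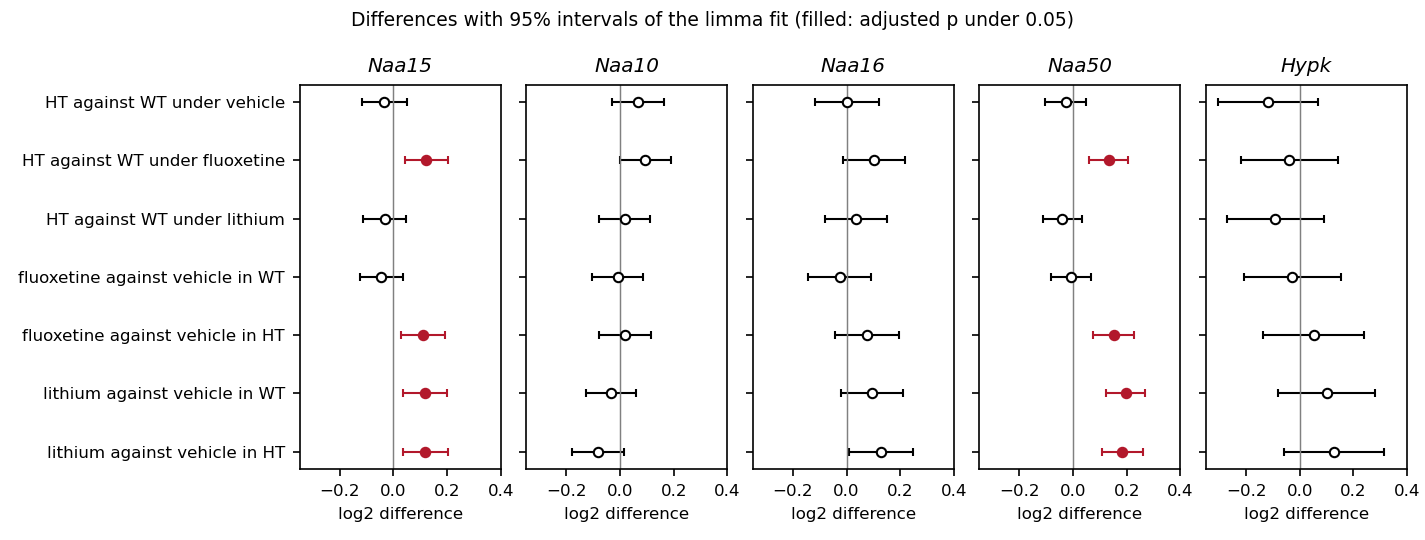
Log2 differences (x axes) of the 5 members in 7 comparisons (rows), as the limma estimate with its 95% interval; filled symbols have an adjusted p under 0.05 over all genes tested. Naa15 and Naa50 pass under fluoxetine in HT mice and under lithium in both genotypes. With each library's trend on GC content and length removed, neither is called higher for fluoxetine in HT mice or for lithium over both genotypes. The lithium estimate for Naa50 over both genotypes is then -0.03. In WT mice alone the lithium call of Naa15 stayed in 14 of 16 alternatives, most of which do not correct for GC content. Its estimate turned to -0.12 with the slopes as covariates, while not every GC and length correction ended the call.

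Under lithium Naa50, Naa15 and Naa16 were higher than under vehicle on the size-factor scale, while only Naa16 was still called higher once each library's trend on GC content and length was taken out. These are 3 of 5 members, where 63.1% of all genes were called and 32.7% were called higher, and the median difference of the 5 was 0.11 against 0.02 over all genes. Naa50 had a lowest, median and highest value of 1899.5, 2145 and 2472 in the 20 lithium libraries and of 1701, 1889 and 2038 in the 19 vehicle libraries. It rose by 0.19 ± 0.026 (adjusted p = 1.04e-08), which is 14.1% with an interval of 9.97% to 18.3%, and lay above the vehicle mean of its own genotype and sex in 20 of 20 libraries. Naa15 had 1575, 1759 and 1957 against 1476, 1599 and 1971 and rose by 0.12 ± 0.029 (adjusted p = 0.000363, 18 of 20 libraries). Its paralogue Naa16 had 199, 227 and 313 against 188, 213 and 256 and rose by 0.11 ± 0.042 (adjusted p = 0.0178, 14 of 20 libraries).

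Naa50 was the member whose lithium and vehicle ranges came apart. WT lithium females had 2041, 2120.1, 2136, 2214 and 2274, and WT vehicle females 1818, 1826, 1862, 1863 and 2038. WT lithium males had 1964, 2149.7, 2181.8, 2192 and 2472, and WT vehicle males 1830.4, 1889, 1917, 1955 and 1957. HT lithium females had 2080.4, 2104, 2139.5, 2153 and 2226, and HT vehicle females 1739, 1774, 1950.0, 1967 and 1975. In these 3 strata the ranges did not overlap, by margins of 2038 to 2041 in WT females and 1957 to 1964 in WT males. Ranges that did not overlap were found for 20.8%, 28.2% and 24.2% of all genes in the same strata, and for 26.6% in HT males. In HT males those of Naa50 overlapped, with 1899.5, 1966, 2131, 2161 and 2273 under lithium and 1701, 1818, 1895 and 1952 under vehicle. The difference passed in each stratum, between 0.18 and 0.20 (adjusted p of 0.00162 to 0.00738), with 37.8% and 43.5% of all genes called in WT females and males and 37.7% and 38.9% in HT females and males. For the other members the ranges overlapped in all 4 strata.

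The catalytic subunit and the regulator were not called. Naa10 had 417, 503 and 589 under lithium and 451, 527 and 613 under vehicle, a difference of -0.06 ± 0.034 (adjusted p = 0.126). Hypk had 249, 313 and 429 against 199, 291 and 371, a difference of 0.11 ± 0.065 (adjusted p = 0.121), an estimate like that of Naa15 with an SE more than 2 times as large. No difference in response between the genotypes was detectable. In WT and in HT mice Naa15 rose by 0.12 (adjusted p of 0.0116 and 0.0144) and Naa50 by 0.20 and 0.18 (adjusted p of 9.05e-06 and 4.85e-05), 2 of 5 members each, with 52.9% and 50.6% of genes called. The interaction of genotype with lithium was 0.00 for Naa15, with an interval of -0.12 to 0.12, and -0.01 for Naa50, with an interval of -0.12 to 0.09. It called 0 of 5 members by limma, edgeR and DESeq2 (0 at an unadjusted p under 0.05) and 0% of all genes, of which 1058 had an unadjusted p under 0.05, while edgeR called 0 genes and DESeq2 called 2.

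Against fluoxetine, lithium libraries were higher in Naa50 by 0.12 ± 0.026 (adjusted p = 0.000108) and in Naa15 by 0.09 ± 0.028 (adjusted p = 0.00886), 2 of 5 members where 53.9% of genes were called. After the GC and length correction the direction of Naa50 turned, to -0.06 (adjusted p = 0.0814), and Naa15 was at 0.01 (adjusted p = 0.713). Naa50 was called lower with merged exon length, at -0.08 (adjusted p = 0.00743), and with the slopes as covariates, at -0.19 (adjusted p = 0.0177). Without these corrections Naa16 stood at 0.09 ± 0.041 (adjusted p = 0.0696) and Naa10 at -0.06 ± 0.033 (adjusted p = 0.105). The fluoxetine arm here includes the HT females that stand with the lithium libraries. With HT females left out of the contrast Naa16 reached 0.12 (adjusted p = 0.0254). Naa10 passed, lower under lithium, without WT fluoxetine female replicate 5 or WT lithium male replicate 2 (-0.07 and -0.08, adjusted p of 0.0498 and 0.0427).

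These differences moved with the GC slope of the libraries. The exons of Naa50 hold 37.2% G or C, at percentile 2.0 of all tested genes, those of Naa15 41.7% (percentile 12.9) and those of Naa16 43.0% (percentile 18.0), against a median of 49.4%. Hypk with 47.9% (percentile 42.4) and Naa10 with 50.2% (percentile 54.5) lie near the middle. With group means removed, the level over 59 libraries correlated with the GC slope at r = -0.73 for Naa50 (Spearman's rho = -0.73), -0.69 for Naa15 (-0.61) and -0.57 for Naa16 (-0.49), the first 2 with adjusted permutation p of 2.5e-05 and the last with 6.67e-05. For Naa10 r was 0.40 (rho = 0.44, adjusted permutation p = 0.0062) and for Hypk -0.12 (rho = -0.16, adjusted permutation p = 0.4). Without the 2 libraries of the most extreme slope r was -0.68, -0.59, -0.51, 0.39 and -0.19 in the same order. The slope is itself fitted to all genes, so genes of low GC content tend to correlate negatively with it. These p-values test against no relation and do not single out the members.

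**Figure D3:**
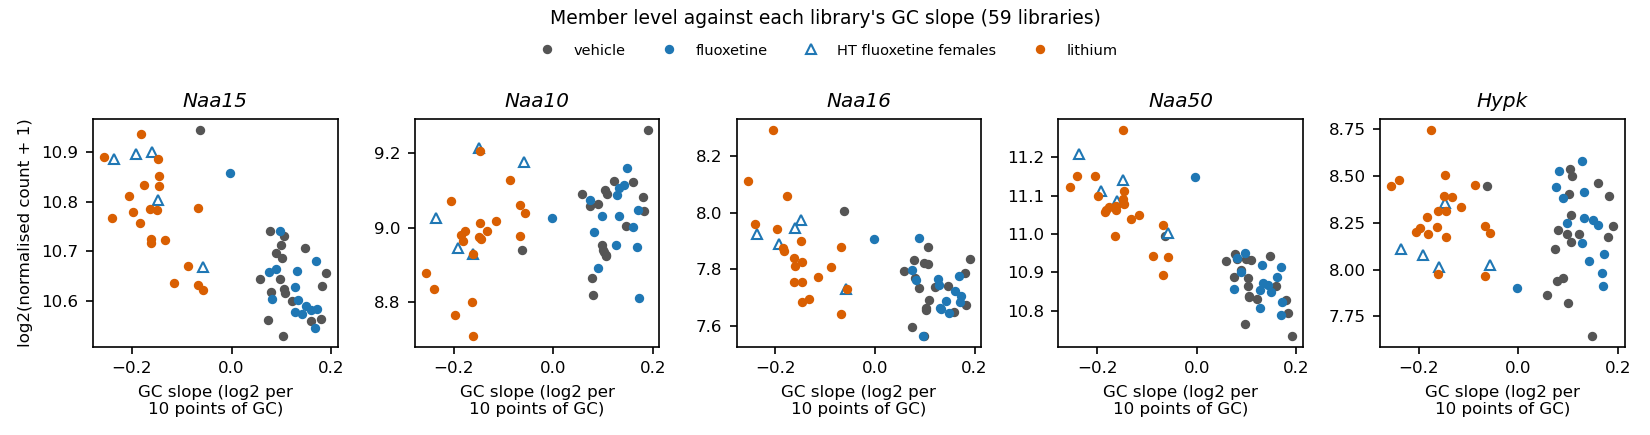
Level of each member, log2 of the normalised count plus 1 (y axes), against the GC slope of the library, in log2 units per 10 points of GC content (x axes), for 59 libraries coloured by treatment with the 5 HT fluoxetine females as open triangles. Lithium libraries and these triangles lie at negative slopes, where Naa50, Naa15 and Naa16 are high and Naa10 is not.

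After each library's trend on GC content and length was removed, lithium against vehicle was -0.03 for Naa50 (adjusted p = 0.299) and 0.04 for Naa15 (adjusted p = 0.127), Naa16 stayed higher at 0.09 (adjusted p = 0.0261) and Naa10 was called lower, at -0.11 (adjusted p = 0.00473). With merged exon length in place of the longest transcript, an alternative chosen after the data were seen, Naa16 was at 0.07 (adjusted p = 0.0716), Naa10 at -0.04 (adjusted p = 0.348) and Naa50 was called lower, at -0.07 (adjusted p = 0.0221). When the slopes instead entered the model as library covariates, Naa50 was again called lower, at -0.22 (adjusted p = 0.0412), with Naa15 at -0.13 (adjusted p = 0.346) and Naa16 at -0.06 (adjusted p = 0.821). The direction of Naa50 under lithium thus depended on whether GC content was corrected. In WT mice alone the lithium call of Naa15 stayed in 14 of 16 alternatives, most of which do not correct for GC content. Its estimate turned to -0.12 with the slopes as covariates, while not every GC and length correction ended the call. The first correction took the genotype difference under fluoxetine to 0.05 for Naa15 (adjusted p = 0.28) and -0.01 for Naa50 (adjusted p = 0.951), and the response to fluoxetine in HT mice to 0.05 (adjusted p = 0.376) and 0.01 (adjusted p = 0.916).

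Marker levels moved with the same libraries. Under lithium 5 of 6 cortical excitatory markers were lower and 1 higher, where 30.4% of all genes were called lower and 32.7% higher, and their summed level was 48691 to 64794 against 54192 to 74343 under vehicle. Of the endothelial markers 4 of 6 were lower and 1 higher, with sums of 5152 to 7802 against 5646 to 8195, and 3 of 6 astrocyte markers were lower and 0 higher, with a median sum of 118095 against 131569. After the GC and length correction 2 excitatory, 5 endothelial and 3 astrocyte markers were lower, and 0, 1 and 0 higher. The number of all genes called after it stayed within 1.5 times of the 11287 called without it, and was not split by direction. No marker of these lists was at 0 in any library. Their part in the members' differences was not tested.

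Ratios within a library compare members without the library scale. The 4 ratios, of Naa15 to Naa16, to Naa10 and to Hypk and of Naa50 to Naa10, were tested in 12 comparisons by two-sided permutation within strata, with p-values adjusted over the 48 tests. The log2 ratio of Naa50 to Naa10 had a lowest, median and highest value of 1.47, 1.84 and 2.11 under vehicle and of 1.81, 2.08 and 2.36 under lithium. It was higher under lithium by 0.25 (adjusted permutation p = 0.00048, above the vehicle mean in 19 of 20 libraries), where the raw p of 1e-05 is the smallest that the resampling can give. The ratio of Naa15 to Naa10 was higher under lithium by 0.18 (adjusted permutation p = 0.0106, 18 of 20 libraries). Both also passed against fluoxetine, by 0.18 (adjusted permutation p = 0.00384) and 0.15 (adjusted permutation p = 0.0166).

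The balance of the auxiliary subunit and its paralogue was called in none of the 12 comparisons. The ratio of Naa15 to Naa16 differed by 0.01 under lithium (adjusted permutation p = 0.967), by 0.01 under fluoxetine (adjusted permutation p = 0.967) and by -0.04 between HT and WT under vehicle (adjusted exact permutation p = 0.819). None of the 16 tests of HT against WT passed, and the smallest adjusted p among them was 0.373, for Naa15 to Hypk over all treatments. After removal of the GC and length trend the lithium difference of Naa50 to Naa10 was 0.07 (adjusted permutation p = 0.182). That of Naa15 to Naa10 still passed, at 0.15 (adjusted permutation p = 0.00096). Under this correction Naa10 itself was called lower under lithium, a call not made with merged exon length. The ratios were not run with merged exon length or with the slopes as covariates.

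**Figure D4:**
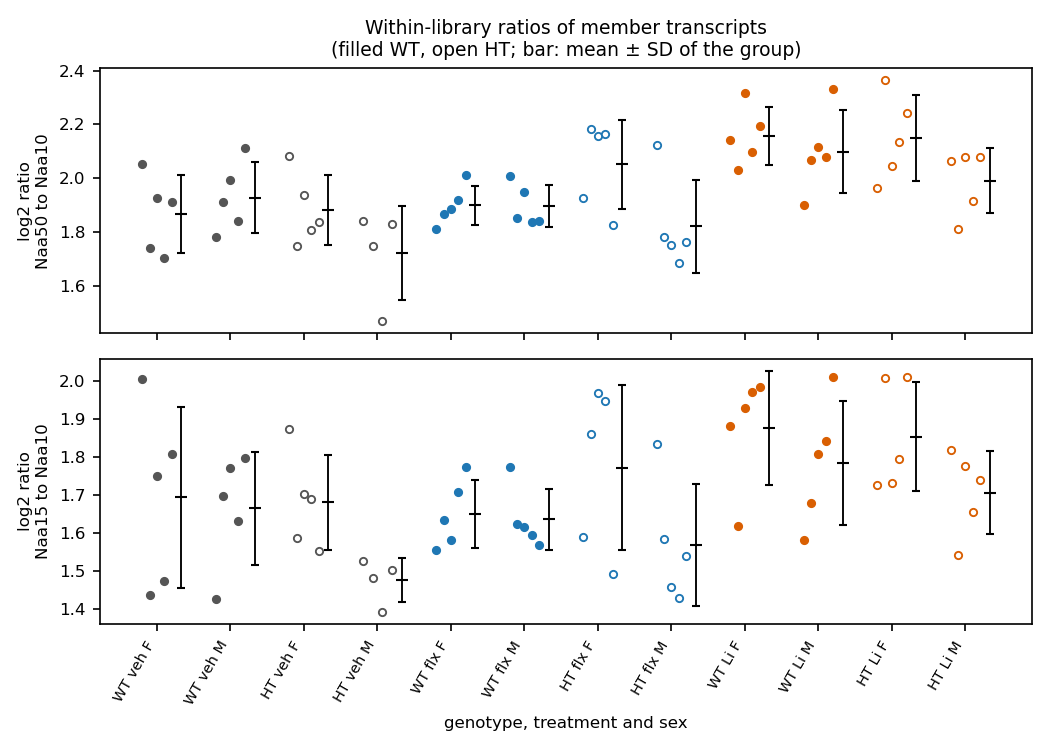
Log2 ratios of the counts of Naa50 to Naa10 and of Naa15 to Naa10 within each library (y axes) in the 12 groups (x axis); bars are the group mean ± SD. The ratio of Naa50 to Naa10 has its median at 2.08 in lithium libraries and 1.84 in vehicle libraries, a gap that falls to 0.07 once the GC and length trend is removed.

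Within groups some members varied together from library to library. With group means removed, Naa15 and Naa50 correlated at r = 0.66 over 59 libraries (rho = 0.63, adjusted permutation p = 0.0002 over 10 pairs) and Naa15 and Naa16 at r = 0.50 (rho = 0.42, adjusted permutation p = 0.0029). Set against 8946 genes, Naa50 stood at percentile 98.8 and Naa16 at 92.8 by r with Naa15. In turn Naa15 stood at percentile 97.4 by r with Naa50 and 93.3 by r with Naa16. The p-values test against no correlation and do not set the members apart from other genes. Naa16 and Naa50 stood at r = 0.34 (rho = 0.24, adjusted permutation p = 0.1), and passed without WT lithium male replicate 2 (r = 0.46, adjusted permutation p = 0.00507) or HT vehicle male replicate 3 (r = 0.38, adjusted permutation p = 0.0421). The 7 pairs that include Naa10 or Hypk lay between -0.25 and 0.25, and Naa15 and its catalytic partner Naa10 at -0.19 (rho = -0.21, adjusted permutation p = 0.332). The correlation of Naa15 with Naa50 was 0.67 within the 25 libraries of lithium and HT fluoxetine females and 0.65 within the other 34 (adjusted permutation p of 0.0128 and 0.009), and 0.57 without the 2 libraries of most extreme Naa15. That of Naa15 with Naa16 was 0.49 and 0.52 within these sets (adjusted permutation p of 0.071 and 0.0783), and 0.41 without the 2 libraries. After removal of the GC and length trend the 2 pairs stood at 0.52 (adjusted permutation p = 0.0627) and 0.21 (adjusted permutation p = 0.234). Naa10 and Naa50 moved from -0.07 to 0.41 (adjusted permutation p = 0.0627), and Naa15 and Naa10 to 0.28 (adjusted permutation p = 0.234). Naa10 and Naa16 were at 0.08, and no pair passed after this removal.

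The genes most like each member over the 59 libraries, with group means removed, were taken from 8946 candidates and are given by r alone. Naa50 was closest to Ube2d3 (0.90), Ppp1cb (0.90) and Ube2v2 (0.87), which encode proteins of the ubiquitin-conjugating family and, for Ppp1cb, a catalytic subunit of protein phosphatase 1. Naa15 was closest to Ppp4r3a (0.78), Ddx5 (0.77) and Hnrnpu (0.76), a phosphatase 4 regulatory subunit and 2 RNA-binding proteins. Naa16 was closest to Lats1 (0.79), a Hippo pathway kinase, and to the splicing regulators Tial1 (0.76) and Srsf1 (0.75). All 9 of these genes have exons of low GC content, between percentile 0.554 (Ube2v2) and percentile 19.01 (Ddx5) of the tested genes. Naa10 was closest to the ribosomal protein genes Rpl8 (0.63) and Rps12 (0.63) and to Erp29 (0.62), a protein of the endoplasmic reticulum. Hypk had the weakest neighbours, A830036E02Rik (0.58), Tmem181b-ps (0.57) and Zfand1 (0.57).

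Between the sexes 0 of 5 members were called by limma and by edgeR, with 2 at an unadjusted p under 0.05, and DESeq2 called 1, where limma called 8.76% of all genes. Naa15 was 0.07 ± 0.023 higher in females (adjusted p = 0.0589, 21 of 30 female libraries above the male mean of their group) and X-linked Naa10 differed by -0.05 ± 0.027 (adjusted p = 0.26). Leaving out any 1 of 10 libraries brought Naa15 under the threshold (adjusted p down to 0.0238). Over the 16 other alternatives, fitted by limma, edgeR or DESeq2, its difference ran from 0.01 to 0.07 (adjusted p of 0.0446 to 0.849). All genes called between the sexes fell from 1567 to 27 without the HT fluoxetine females and to 108 with the GC and length trend removed. The ratio of Naa15 to Naa10 was higher in females by 0.12 (adjusted permutation p = 0.0262, 23 of 30 libraries). Its adjusted p was 0.0604 without WT vehicle female replicate 1, 0.0545 without WT vehicle male replicate 1 and 0.109 without the HT fluoxetine females.

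The 10 tested genes on each side of Naa15 on chromosome 3 bear on whether the region around the targeted gene differed between genotypes. Under vehicle, under lithium and over all treatments 0 of these 20 were called by limma, edgeR or DESeq2, and 1, 4 and 4 had an unadjusted p under 0.05. Under fluoxetine 2 were higher in HT, Ndufc1, which encodes a subunit of respiratory complex I and lies next to Naa15, by 0.19 ± 0.053 (adjusted p = 0.00342) and Cog6, of a Golgi tethering complex, by 0.10 ± 0.019 (adjusted p = 4.84e-05). These are 2 of 20 neighbours in a comparison that called 33.3% of all genes. After the GC and length correction 0 of 20 were called (limma), where 2232 of all genes were.

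Other genes of protein N-terminal processing were counted from lists of the pathway, of which 41 genes were tested. Between HT and WT under vehicle 0 of them were called by limma, edgeR or DESeq2, and 3 had an unadjusted p under 0.05. Under lithium 5 of 8 subunits of other N-terminal acetyltransferases were higher and 2 lower (median 0.12, against 0.02 over all genes, of which 32.7% were called higher and 30.4% lower), and after the GC and length correction 3 were higher and 1 lower (median 0.01). For this list and those below, the number of all genes called after the correction stayed within 1.5 times of the 11287 called without it. It was not split by direction. Naa38, an auxiliary subunit of NatC, rose by 0.36 ± 0.040 (adjusted p = 2.89e-11) and was at 0.22 after the correction, and Naa30, the catalytic subunit, rose by 0.19 ± 0.028 (adjusted p = 7.93e-08) and was at 0.02. Naa80, which acetylates actin, fell by 0.37 on the log2 scale (adjusted p = 5.08e-10) and was at -0.26 after the correction. Naa20, the catalytic subunit of NatB, had the smallest p of the list, 0.31 ± 0.018 (adjusted p = 4.63e-21), and was at -0.007 after the correction (adjusted p = 0.842).

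Methionine removal by the MetAP enzymes precedes acetylation by NatA, and N-myristoylation competes for some of the same N-termini. Of these 6 genes 3 were higher and 0 lower under lithium, against the same shares of all genes, and after the correction 1 was higher and 3 lower. Among the 3 higher genes were Metap1 at 0.07 ± 0.022 (adjusted p = 0.008) and Metap2 at 0.08 ± 0.016 (adjusted p = 5.86e-06). After it both had the other sign, -0.16 (adjusted p = 3.11e-05) and -0.05 (adjusted p = 0.02), while of the N-myristoyltransferases Nmt1 was called higher at 0.15 (adjusted p = 3.37e-10) and Nmt2 lower at -0.07 (adjusted p = 0.0182), both singled out after their values were seen.

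Factors that meet the nascent chain at the ribosome exit, where NatA works, were higher under lithium in 11 of 13 and lower in 1 (median 0.20), where 32.7% and 30.4% of all genes were, and 5 were higher with 1 lower after the correction (median 0.03). Naca and Btf3, the subunits of the nascent polypeptide-associated complex, rose by 0.20 ± 0.015 and 0.25 ± 0.015 and were at 0.39 and 0.12 after the correction. Srp14 of the signal recognition particle rose by 0.24 ± 0.017 and was at -0.02 after it (adjusted p = 0.465). The gene that was lower, named for that reason after its values were seen, was Srp68 of the same particle, which fell by 0.24 on the log2 scale (adjusted p = 2.02e-12) and was at -0.14 after the correction.

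Of 14 genes of N-degron recognition, which read N-termini as signals for degradation, 4 were higher and 6 lower under lithium (median -0.02), against 32.7% and 30.4% of all genes, and 6 were higher and 4 lower after the correction. Ubr4, a large ubiquitin ligase, differed by -0.41 ± 0.034 and was at -0.11 after it, Zer1, a substrate receptor, differed by -0.29 ± 0.021 and was at -0.02, and Ate1, an arginyltransferase, higher by 0.16 ± 0.017 and at 0.10 after it. These lithium libraries are the ones with negative GC slopes. The recount with the correction was chosen after the data were seen. The shares of 32.7% and 30.4% belong to the fit without it. The corrected counts have no share of all genes by direction beside them, and are not read as particular to these lists.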

How the data were processed

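The authors deposited one table of gene-level signal values per library for poly(A) RNA from a stranded kit. Per the submitters' processing notes, the build was GRCm38 and the tools were DESeq2 1.19.11, Salmon 0.11.2 and R 3.6.0. Each deposited signal value is a whole estimated read count divided by a factor of its library, found from the values, and these reads were recovered as an alternative. Values were tested as log2(value + 1), so that a difference understates the change of low genes, for the 17891 of 18088 genes that reached 10 in a minimum of 4 libraries. The test was limma 3.58.1 (R 4.3.3) on 12 group means with an intensity trend, 47 residual degrees of freedom, two-sided p-values, Benjamini-Hochberg adjustment over all genes tested and a threshold of 0.05. It was tested on simulated data. Comparisons over sexes or genotypes weight the strata equally, and a stratum is dropped when a group of it is left out. Ratios and correlations used exact permutation within strata or 100000 resamples (Python 3.11.15, numpy 2.4.6).

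GC content and lengths came from GENCODE models of GRCm38, and promoters from RefSeq GRCm38.p6. The GC and length correction removes from each library a spline with 5 degrees of freedom on GC content and on the longest transcript. Other alternatives were quantile and median scaling, other filters and added constants, no intensity trend, a robust prior, fits on the groups compared alone, a replicate block, edgeR 4.0.16, DESeq2 1.42.0, and leaving out each library or the HT fluoxetine females. Same-numbered libraries did not deviate together (mean correlation 0.005 over 319 pairs), so the numbers were not used for pairing. No 2 libraries of a group agreed within sampling noise. The members and lists were chosen with earlier results of these data known. The rule for named genes took all members, up to 4 called genes of smallest p per list, called neighbours of Naa15 and the 3 genes of highest correlation with each member. Naa11 and Naa12 were not analysed here.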

Additional observations from a re-analysis of the deposited data

Results flagged for a closer look

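In each group of 4 or 5 libraries the highest and lowest value of every member was compared with its neighbour, and a gap above Dixon's 95% critical value, as a share of the group's range, marked a library as standing apart. Of 60 such groups 5 held one, and chance marks about 1 in 20, or 5%. HT fluoxetine male replicate 1 stood apart in both Naa15, at 1855 against 1523 to 1614 in the other 4 libraries, and Naa50, at 2271 against 1843 to 1866. WT vehicle female replicate 1 stood apart in Naa50, at 2038 against 1818 to 1863, and also had the highest Naa15 of its group, 1971. These 2 libraries had the lowest GC slopes of the 34 outside lithium and the HT fluoxetine females, -0.002 and -0.063, where the next was 0.058. HT vehicle male replicate 3 stood apart in Naa10, at 613 against 532 to 544, and HT fluoxetine female replicate 1 in Hypk, at 326 against 258 to 275.

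The response to fluoxetine differed between genotypes for Naa15 by 0.16 on the log2 scale (limma, interaction, adjusted p = 0.0461) and for Naa50 by 0.16 (adjusted p = 0.0231). The fit without the HT fluoxetine females leaves males alone, where the values were 0.10 and 0.11 and neither passed. After the GC and length correction they were 0.04 and -0.03.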

How the results depend on the processing

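Of the values of single members under the alternatives other than leaving out a library, 1054 kept their side of the threshold, among them 70 that changed sign without a call on either side. Another 27 no longer passed, 10 newly passed, and 29 reversed with a call on at least 1 side, each under a GC and length correction. No member was called between HT and WT under vehicle, over all treatments or under lithium by any alternative. With the trend removed, the number of members called was 0 for HT against WT under fluoxetine, fluoxetine against vehicle over both genotypes and in HT, and the interaction with fluoxetine, and 1 for lithium against fluoxetine and against vehicle in WT and in HT. With merged exon length and with the slopes as terms it was also 1 for lithium against vehicle over both genotypes, and with the slopes 0 for lithium in WT. Without the HT fluoxetine females, which takes the strata that hold them out of these contrasts, it was 0 for the same 4 fluoxetine results. Without an intensity trend it was 0 for fluoxetine over both genotypes and 1 for its interaction, with edgeR 0 for fluoxetine over both genotypes, and between the sexes 1 with a mean of at least 100 and with DESeq2.

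With the trend removed the estimate of Naa50 changed sign. It was -0.0050 for HT against WT under fluoxetine (limma, adjusted p = 0.951) and -0.033 for lithium against vehicle (adjusted p = 0.299). It was -0.056 for lithium against fluoxetine (adjusted p = 0.0814) and -0.0017 for lithium in WT (adjusted p = 0.977). For lithium in HT it was -0.065 and for the interaction with fluoxetine -0.026. The estimates given with an adjusted p were not called, so there the difference was lost and no fall was shown. A changed sign in the fits below is likewise not by itself a call. With merged exon length the same 6 were -0.021, -0.068, -0.081, -0.040, -0.10 and -0.040, and fluoxetine in HT was -0.0065. With the slopes as terms they were -0.11, -0.22, -0.19, -0.20, -0.23 and -0.12, with -0.083 for fluoxetine in HT and -0.025 for fluoxetine over both genotypes. In that fit Naa15 was -0.040, -0.13, -0.11, -0.12, -0.15 and -0.046 for the same 6 and -0.043 for fluoxetine in HT, and Naa16 was -0.064 for lithium against vehicle. The cause was not tested.

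With 1 library left out, the members called ranged from 3 to 3 for lithium against vehicle, 2 to 4 for lithium against fluoxetine, 2 to 2 and 2 to 3 for lithium in WT and HT, 1 to 2 for HT against WT under fluoxetine and for fluoxetine in HT, 0 to 1 for fluoxetine over both genotypes and between the sexes, 0 to 2 for the interaction with fluoxetine, and 0 to 0 for the others. A replicate block gave the same numbers, 3 for lithium against vehicle and 2 for HT against WT under fluoxetine, and changed no call of a member.

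Counts over all genes moved by more than 1.5 times as well. Without the HT fluoxetine females the next contrasts rest on males alone. Counts then fell from 5966 to 251 for HT against WT under fluoxetine, from 3692 to 0 for the interaction and from 5579 to 26 for fluoxetine in HT. With the trend removed, over both sexes, they fell to 2232, 306 and 1969. Between the sexes 1567 became 108 with the trend removed, and for HT against WT under lithium 69 became 247 with DESeq2. For lithium against vehicle over both genotypes 11287 became 1820 with the slopes as terms. In WT and HT mice alone 9467 and 9054 became 6244 and 5163 with the trend removed, and 1748 and 1609 with the slopes. Read numbers limit Naa16 most, with 165 reads at the least. Lithium and the GC slope of the libraries cannot be told apart in this design.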
